A study of Mus musculus with 6 samples.

Results

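The genes described here encode the chains of the collagens. They were taken by name, as every row of the count table whose symbol reads Col, a number, a and a number, which gave 42 of 16000 genes. The study sequenced polyadenylated RNA of NIH3T3 cells, an established line of mouse embryonic fibroblasts, and its design text sets RAI16 knockout cells against wild-type cells. All cells of both groups had been serum-starved, and each group had 3 libraries. Neither the lesion behind the knockout nor the origin of a group's libraries, as separate cultures, clones or repeats of 1 culture, is stated in the labels. The p-values therefore cover only how these libraries scatter, and that scatter may be technical.

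Collagens are secreted proteins of the extracellular matrix whose chains wind around each other into rod-like trimers. The class of a chain says what the trimers build: fibrillar collagens form the tensile fibrils of connective tissue, collagen IV forms the sheet of the basement membrane, FACIT collagens sit on the surface of fibrils, and collagen VI forms beaded filaments close to the cell. Because a trimer needs its chains in a fixed proportion, genes whose chains share a trimer are set side by side below, and fibroblasts are the main makers of most of these chains.

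Total counts ran from 16741607 to 17482451 in the wild-type and from 17805417 to 18368760 in the knockout libraries. The targeted gene, listed under the symbol Fam160b2, held 375 to 440 counts in wild type and 390 to 410 in knockout (log2 fold change −0.12 ± 0.075, adjusted p = 0.184, edgeR's quasi-likelihood test), so its level does not check the labels. All 10 fibroblast markers examined had a row in the count table. Their summed level was 21793 to 22140 CPM (counts scaled to library size) in wild type and 16424 to 19459 CPM in knockout. That drop was the drop of Fn1, the fibronectin gene and the largest member, from 13801 to 14284 CPM in wild type to 6946 to 10422 CPM in knockout. The other markers summed to 7856 to 8034 and to 9028 to 9478 CPM. By gene, Thy1 and Vim were higher, Pdgfrb and Fn1 lower and 5 not called. Fap, at 0.109 CPM or less in every library, was not tested. Lists of epithelial, endothelial, leukocyte and adipocyte markers summed to at most 7.19 CPM in any library, yet each of these 4 sums was higher in every knockout library than in any wild-type library. They were 2.04 to 2.53 and 4.67 to 5.94 CPM for epithelial and 2.30 to 2.88 and 4.61 to 7.19 CPM for endothelial markers. For leukocyte markers they were 3.81 to 3.96 and 4.84 to 5.50 CPM, and for adipocyte markers 0.180 to 0.231 and 0.450 to 1.58 CPM. Krt8, Cdh5 and Cd68 were called higher. Cdh5 was at 0.360 CPM or less in wild type, so it was tested through the knockout libraries only. The epithelial rise was that of Krt8 and the leukocyte rise that of Cd68. Without Krt8 the epithelial sum was 0.925 to 1.38 CPM in wild type and 0.676 to 1.25 CPM in knockout. Without Cd68 the leukocyte sum was 0.345 to 0.540 and 0.0563 to 0.381 CPM. Without Vwf, its largest member, the endothelial sum was 0.402 to 0.719 and 1.74 to 4.69 CPM. Without Fabp4 the adipocyte sum was 0 to 0.116 and 0.0543 to 0.272 CPM. The part of these markers in the collagen results was not tested. No marker present in the table was at 0 in all libraries. Knockout replicate 2 stood apart: its counts differed from those of the other knockout libraries by a chi-square of 26.5 to 28.6 per degree of freedom, against 1.72 to 2.25 for the other pairs of a group. Its long transcripts were low and its short ones high, with a Spearman correlation across the 11972 tested genes of −0.67 between gene length and the log2 ratio of replicate 2 to the other knockout libraries. Genes are not independent replicates, and collagen genes whose call changed without this library are given with and without it.

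Levels between genes are compared in FPKM, the authors' count scaled to gene length and to library size. A change is the log2 fold change of knockout over wild type with its standard error, from edgeR's quasi-likelihood test on the counts, and a gene is called where p, adjusted by Benjamini-Hochberg across the 11972 genes tested, is under 0.05. Of the 42 collagen genes, 27 passed the filter on low counts and 15 did not. Among the 27, 9 were higher and 11 lower in knockout and 7 were not called. The called share was 74.1%, against 59.6% of all genes tested, with 33.3% higher (30.5% of all genes) and 40.7% lower (29.2% of all genes). The 3 knockout libraries lay wholly above or below the 3 wild-type libraries for 20 of the 27, 74.1% against 67.6% of all genes tested. A change of at least 2-fold was called for 6 of them (22.2%, against 10.9% of all genes tested): Col3a1, Col6a3, Col8a1, Col10a1, Col18a1 and Col22a1. The median size of the log2 fold change was 0.48 over the 27 and 0.32 over all genes tested, while the signed medians were −0.12 and 0.0028. The first of these was −0.227 without knockout replicate 1 and −0.0573 without knockout replicate 2. The filter can favour genes that are high in 1 group: Col10a1 passed it through the wild-type libraries alone. Col22a1, with 10, 14 and 15 counts in the knockout libraries, lay close to its minimum count of 10 there. That minimum is scaled to library size, and knockout replicate 1, at 0.543 CPM, fell under it. Col22a1 therefore also needed the wild-type libraries to pass. Both genes are among the 6 called at least 2-fold.

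**Figure D1:**
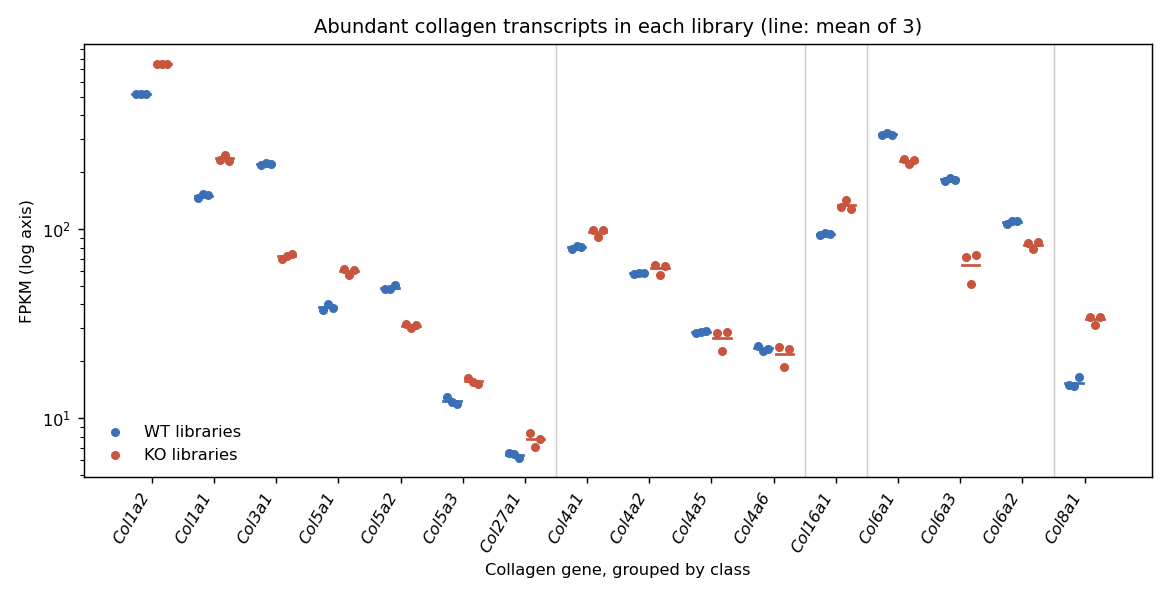
FPKM (log axis) of the 16 collagen genes with a mean of at least 5 FPKM, in each wild-type (blue) and knockout (red) library, with the mean of 3 as a line and grey lines between classes. Col3a1 drops from above Col6a3 and Col1a1 to below Col4a1, Col1a2 is the highest gene in every library, and the low red point of Col6a3, Col4a5 and Col4a6 is knockout replicate 2.

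Summed over all 42 genes, the collagen FPKM of knockout was 1.01 times that of wild type. The sum was 1909, 1951 and 1927 FPKM in wild-type replicates 1, 2 and 3 and 1961, 1910.0 and 1956 FPKM in the knockout replicates, so the groups overlapped. In raw counts the collagen genes took 1.16 ± 0.0134% of the library in wild type and 1.12 ± 0.0233% in knockout (SD, n = 3 each). By library that share was 1.15%, 1.17% and 1.16% in the wild-type replicates and 1.14%, 1.10% and 1.13% in the knockout replicates, so every knockout library lay below every wild-type library. Within the FPKM sum the classes shifted. The fibrillar class went from 51.9% to 60.5% of it and the beaded filament class from 31.7% to 19.4%. Basement membrane chains made up 9.89% and 10.7%, FACIT chains 5.50% and 7.49%, and network-forming chains 0.822% and 1.72%. In bulk RNA, fewer cells of a type and less RNA per cell cannot be told apart.

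**Figure D2:**
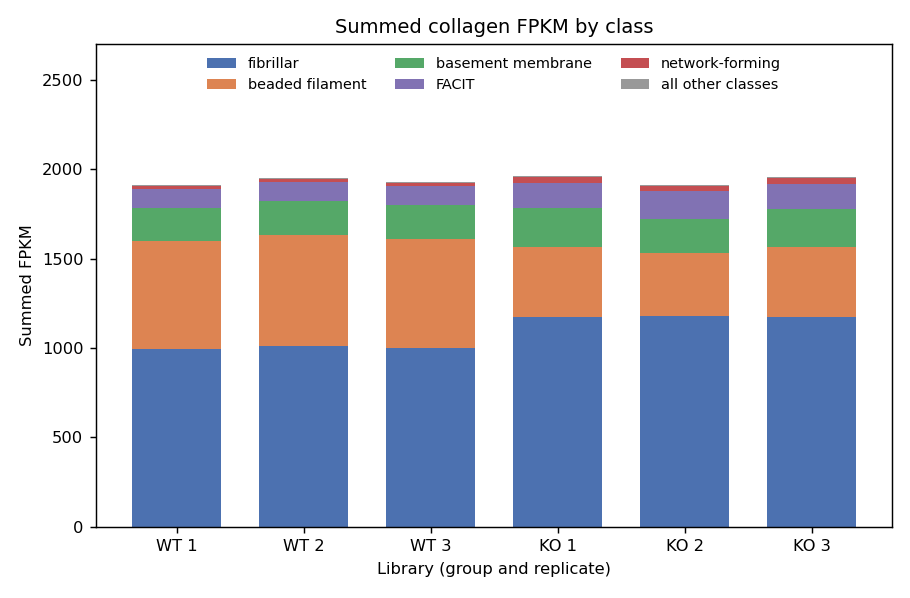
Summed FPKM of the collagen genes in each of the 6 libraries, stacked by class. The columns are of like height, between 1909 and 1961, while the orange beaded filament block shrinks from 603.7 or more in each wild-type library to 391 or less in each knockout library and the blue fibrillar block grows from at most 1009 to at least 1172.

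The fibrillar class, 11 genes of which 9 were tested, split. In it 5 were higher (Col1a1, Col1a2, Col5a1, Col5a3 and Col27a1), 3 were lower (Col3a1, Col5a2 and Col11a2) and 1, Col11a1, was not called. Over all genes tested 30.5% were higher and 29.2% lower, the shares to set beside the counts of each class. Col1a2 (gene number 12843), which encodes the α2 chain of collagen I, the main fibril of skin, tendon and bone, lay at 519, 522 and 517 FPKM in wild-type replicates 1, 2 and 3 and at 751, 749.8 and 751 FPKM in knockout replicates 1, 2 and 3. The groups did not overlap, and the log2 fold change was 0.52 ± 0.053 (adjusted p = 4.10e-05, edgeR). Col1a1 (12842), the gene of the partner chain α1, went from 146, 153 and 151 to 233, 247 and 230.3 FPKM, a change of 0.65 ± 0.055 on the log2 scale (adjusted p = 1.52e-05, edgeR). Both genes were thus higher in each knockout library, and they moved by similar amounts. The collagen I trimer holds more α1 than α2, yet in FPKM Col1a1 stood below Col1a2 in every library. The ratio of Col1a1 to Col1a2 was 0.289 ± 0.00655 in wild type and 0.316 ± 0.0123 in knockout (SD, n = 3 each). No knockout library fell into the wild-type range, and the exact two-sided permutation test gave p = 0.1, the smallest that 3 libraries against 3 allow.

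Col3a1 (12825), whose product forms collagen III, a homotrimer that co-assembles with collagen I in the fibrils of soft tissue, moved the other way. It lay at 219.6, 225 and 222 FPKM in the wild-type replicates and at 69.6, 72.4 and 74.0 FPKM in the knockout replicates, a log2 fold change of −1.64 ± 0.055 (95% interval −1.76 to −1.51; adjusted p = 7.88e-08, edgeR). Each knockout library held about the same low level, replicate 2 included. Set against Col1a1, its FPKM went from a ratio of 1.48 ± 0.0206 to one of 0.304 ± 0.0151 (SD, n = 3 each). Among all genes ordered by mean FPKM, Col3a1 passed from rank 201 in wild type to rank 834 in knockout, or to rank 798 without knockout replicate 2, while Col1a1 passed from rank 313 to rank 208, or to rank 201.

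The genes of collagen V, a minor fibrillar collagen that sits inside collagen I fibrils and limits their width, parted as well. Its usual trimer joins α1 and α2 chains. Col5a1 (12831) rose from 37.3, 40.4 and 38.4 to 61.6, 57.1 and 60.8 FPKM (0.62 ± 0.060 on the log2 scale, adjusted p = 3.40e-05, edgeR). Col5a2 (12832) fell from 48.5, 48.4 and 50.6 to 31.4, 30.1 and 31.2 FPKM (−0.68 ± 0.055, adjusted p = 1.05e-05, edgeR). The groups did not overlap for either gene, and their order was exchanged: the ratio of Col5a1 to Col5a2 was 0.788 ± 0.0415 in wild type and 1.94 ± 0.0325 in knockout (SD, n = 3 each). Col5a3 (53867), the gene of the α3 chain found in some collagen V trimers, lay at 12.9, 12.2 and 11.97 FPKM and then at 16.4, 15.6 and 15.1 FPKM (0.33 ± 0.060, adjusted p = 0.00123, edgeR). The ratio of Col5a1 to Col1a2 was 0.0746 ± 0.00279 and 0.0797 ± 0.00309, and here the libraries of the groups overlapped.

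Col3a1 and Col5a2 are next to each other on chromosome 1 in the RefSeq gene order of the mouse build GRCm38.p6, and both fell. The 10 nearest tested genes around them that encode no collagen, 5 on each side, had a median log2 fold change of −0.49, with 2 higher and 6 lower. The nearest were Gulp1 at −1.39 and Wdr75 at −0.75. The region around Col1a1 on chromosome 11 moved the other way, with 7 of 10 neighbours higher, 0 lower and a median of 0.37. Of the 13 called collagen genes with a mean of at least 5 FPKM, 10 (76.9%) had the sign of their neighbours' median, close to the 74.8% found over 7108 called genes of all kinds.

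The remaining fibrillar genes were minor in these cells. Col27a1 (373864), of a fibrillar collagen known from cartilage, was at 6.54, 6.47 and 6.20 FPKM in wild type and 8.39, 7.06 and 7.77 FPKM in knockout (0.26 ± 0.075, adjusted p = 0.0137, edgeR). Its call was lost without wild-type replicate 3 (0.24, adjusted p = 0.0625, edgeR). Col11a2, for a chain of collagen XI, the collagen V relative of cartilage, averaged 1.93 ± 0.193 FPKM in wild type and 1.59 ± 0.160 in knockout (SD, n = 3 each). Its log2 fold change of −0.29 ± 0.11 only just passed (adjusted p = 0.0481, edgeR) and was lost in several other settings. The change was −0.34 without knockout replicate 2 (adjusted p = 0.0041, edgeR). Col11a1, the partner chain, had 58 counts summed over wild type and 49 summed over knockout (−0.33 ± 0.35, 95% interval −1.11 to 0.46, adjusted p = 0.438, edgeR).

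**Figure D3:**
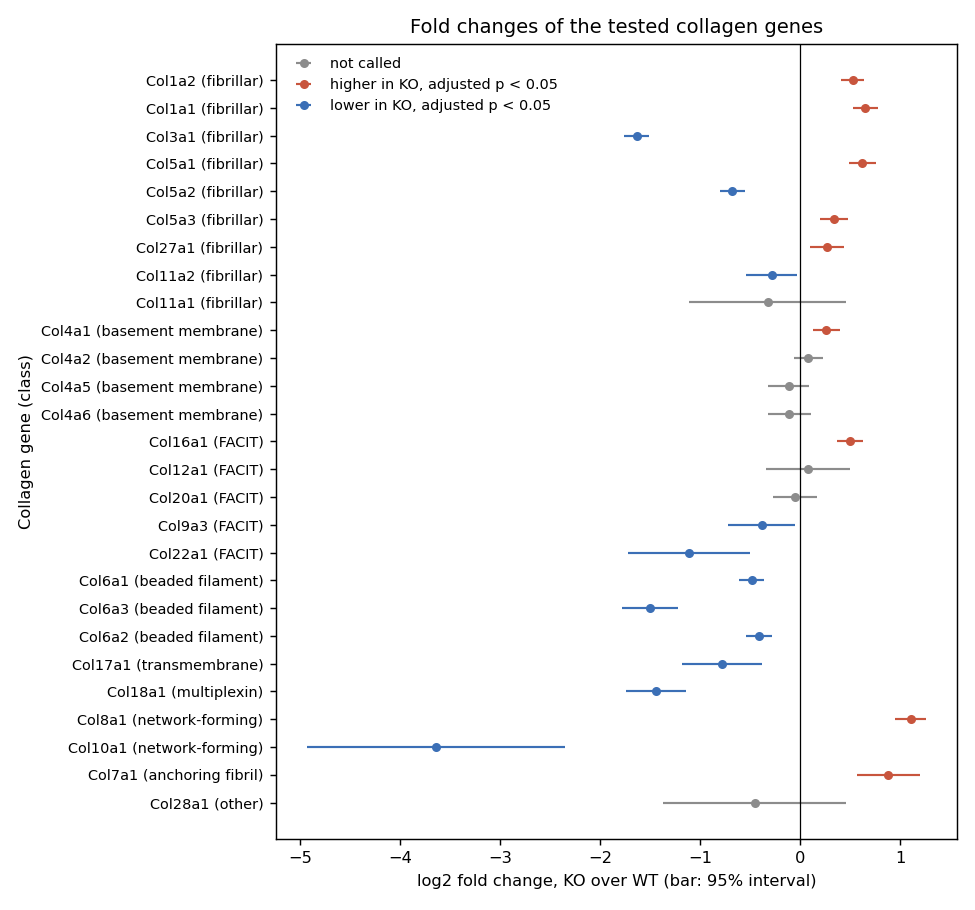
Log2 fold change of knockout over wild type for the 27 tested collagen genes, ordered by class, with 95% intervals; red and blue points are called higher and lower, grey points are not called. Fibrillar genes lie on both sides of 0, the 3 collagen VI genes all lie below it, and the widest interval belongs to Col10a1, which had 5 counts in knockout.

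To show what lies before the start sites of genes that moved in opposite directions, the 250 bases upstream of Col1a2 and Col5a1, which rose, and of Col3a1, which fell, are printed below from RefSeq (build GRCm38.p6, 5′ to 3′ on the gene's strand). Capitals mark matches on either strand to 3 motifs: TATAAA, the core of a TATA box, then CCAAT, and also GGGCGG, the core of a GC box. The window of Col1a2 is chr6:4505368-4505617 on the plus strand, that of Col5a1 is chr2:27886175-27886424 on the plus strand and that of Col3a1 is chr1:45311288-45311537 on the plus strand.
Col1a2: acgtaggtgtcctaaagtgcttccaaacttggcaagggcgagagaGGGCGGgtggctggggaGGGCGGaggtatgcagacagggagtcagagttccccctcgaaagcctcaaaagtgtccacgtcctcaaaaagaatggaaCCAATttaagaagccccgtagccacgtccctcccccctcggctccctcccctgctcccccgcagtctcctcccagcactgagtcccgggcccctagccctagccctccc
Col5a1: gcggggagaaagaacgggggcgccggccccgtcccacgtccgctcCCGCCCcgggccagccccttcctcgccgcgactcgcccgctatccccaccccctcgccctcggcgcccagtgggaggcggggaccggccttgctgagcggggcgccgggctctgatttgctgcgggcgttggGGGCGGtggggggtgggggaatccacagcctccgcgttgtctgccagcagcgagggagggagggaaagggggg
Col3a1: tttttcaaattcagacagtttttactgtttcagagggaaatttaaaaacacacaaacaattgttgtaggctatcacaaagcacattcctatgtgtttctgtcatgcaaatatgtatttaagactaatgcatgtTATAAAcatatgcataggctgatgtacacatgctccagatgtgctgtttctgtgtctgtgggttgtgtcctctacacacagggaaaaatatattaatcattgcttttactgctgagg
Col1a2 holds a CCAAT box at −109 and GC boxes at −205 and −188, counted from the start site, and Col5a1 holds GC boxes at −205 (reverse strand) and −73. Col3a1 holds none of these but a TATAAA at −117. The G and C share is 62.0%, 76.4% and 35.2% in the order printed, against a median of 52.4% over all 32851 windows of this length in the table.

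Of the 42 genes, 33 had an entry in that table. Among the tested ones with an entry, TATAAA was found before 0 of 8 higher genes, 0 of 6 genes not called and 4 of 8 lower genes (Col3a1, Col10a1, Col11a2 and Col17a1). It lay at −117 in Col3a1, −32 in Col10a1, −143 in Col11a2, and −140 and −91 in Col17a1. Of these genes, Col10a1 passed the filter through the wild-type libraries alone, and the call of Col11a2 was lost in several other settings. Over all tested genes TATAAA was found before 7.56% of higher, 8.30% of lower and 7.89% of uncalled genes, and in 12.4% of all windows. GGGCGG was found before 7 of 8 higher and 3 of 8 lower collagen genes, against 66.3% and 63.8% over all tested genes and 32.7% of all windows. CCAAT was found before 5 of 8 and 2 of 8, against 44.98% and 38.1%, and in 33.8% of all windows. A match describes these letters only, and no binding was measured.

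Every tested gene of the beaded filament class fell. Of 6 genes 3 were tested, and all 3 were lower: Col6a1, Col6a2 and Col6a3, whose chains together make up the common form of collagen VI. Col6a1 (12833) went from 316, 324 and 317 FPKM to 235, 222 and 232 FPKM, a log2 fold change of −0.48 ± 0.055 (adjusted p = 8.53e-05, edgeR). Col6a2 (12834) went from 107, 111 and 111 to 84.4, 79.1 and 85.2 FPKM (−0.41 ± 0.057, adjusted p = 2.89e-04, edgeR). These genes lie side by side on chromosome 10, moved by like amounts, and had 10 neighbours with a median log2 fold change of 0.0057. Their ratio, Col6a2 to Col6a1, was 0.343 ± 0.00583 and 0.361 ± 0.00509 (SD, n = 3 each).

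Col6a3 (12835), which encodes the long α3 chain, fell by more than its partners. It lay at 181, 187 and 183 FPKM in the wild-type replicates and at 70.9, 51.2 and 73.1 FPKM in the knockout replicates, with replicate 2 the lowest. The log2 fold change was −1.51 ± 0.12 (95% interval −1.79 to −1.22; adjusted p = 1.26e-05, edgeR) and −1.35 without knockout replicate 2. The ratio of Col6a3 to Col6a1 was 0.572, 0.575 and 0.578 in the wild-type replicates and 0.301, 0.231 and 0.315 in the knockout replicates. In knockout replicates 1 and 3 alone it therefore still lay well under the wild-type range. Col6a3 is on chromosome 1, where its 10 neighbours had a median of −0.38 with 2 higher and 5 lower. Its upstream window, chr1:90843972-90844221 on the minus strand, is shown because Col6a3 and Col3a1 are the abundant genes called at least 2-fold lower, and it holds no match to the 3 motifs.
Col6a3: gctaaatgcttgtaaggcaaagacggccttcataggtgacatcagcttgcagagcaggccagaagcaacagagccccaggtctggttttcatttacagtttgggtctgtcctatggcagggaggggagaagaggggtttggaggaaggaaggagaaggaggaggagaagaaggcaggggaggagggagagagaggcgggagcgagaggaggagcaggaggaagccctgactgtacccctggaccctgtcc
The other genes of the class encode chains that can replace α3 and were at the edge of detection: Col6a5 had 20 counts over all wild-type and 5 over all knockout libraries, and Col6a4 and Col6a6 had 3 in each group.

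**Figure D4:**
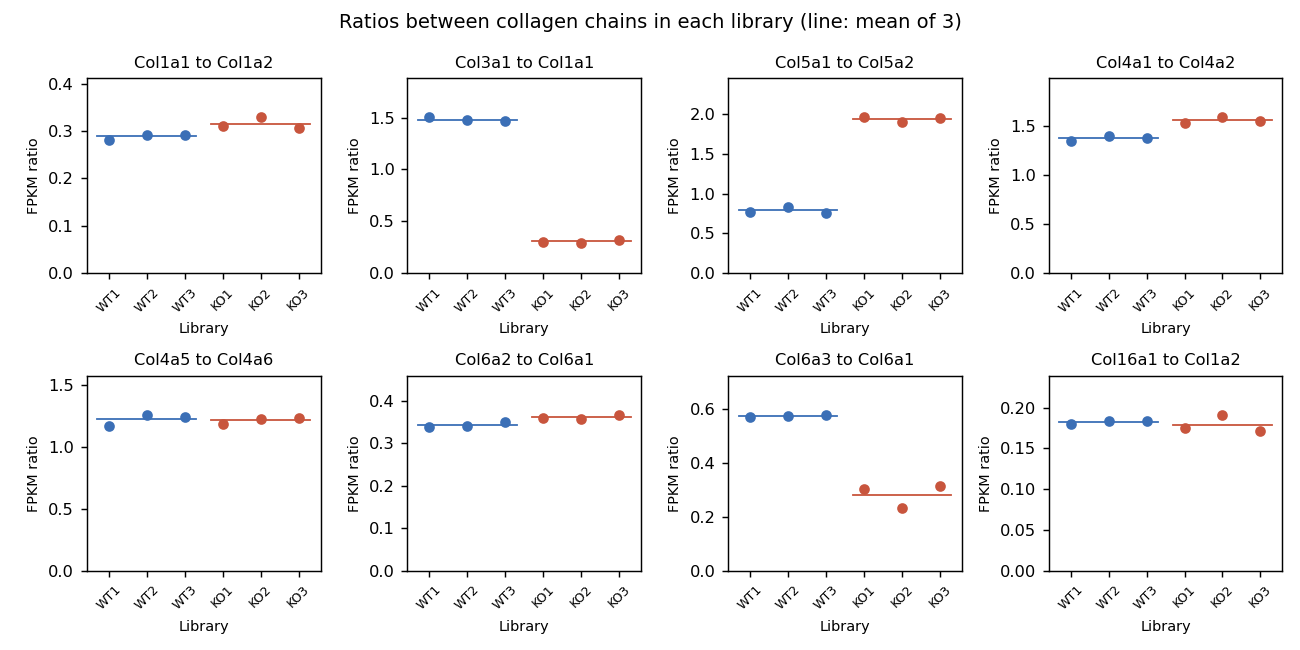
FPKM ratio between collagen genes in each library, with the mean of 3 as a line; chains of the same or of interacting trimers are paired. The ratios of Col3a1 to Col1a1 and Col6a3 to Col6a1 drop in every knockout library, that of Col5a1 to Col5a2 rises above 1.9, and Col4a5 to Col4a6 and Col16a1 to Col1a2 overlap between the groups.

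Of the 6 basement membrane genes 4 were tested, of which 1 rose, 0 fell and 3 were not called. The collagen IV genes lie in head-to-head pairs whose members are transcribed away from a shared region. Col4a1 (12826), for the main α1 chain, was at 78.6, 81.85 and 80.3 FPKM in wild type and 99.2, 91.1 and 99.6 FPKM in knockout (0.26 ± 0.060, adjusted p = 0.00512, edgeR). Its pair on chromosome 8, Col4a2 (12827), for the α2 chain of the same trimer, was at 58.3, 58.6 and 58.4 and 64.9, 57.4 and 64.3 FPKM (0.08 ± 0.064, 95% interval −0.07 to 0.22, adjusted p = 0.322, edgeR). Knockout replicate 2 was the lowest knockout library for both. Without it the change of Col4a2 was 0.14 (adjusted p = 3.10e-05, edgeR) and it was called higher. The 300-base windows around the start sites of this pair overlap by 78 bases on opposite strands, yet the ratio of Col4a1 to Col4a2 differed between the groups without overlap, 1.37 ± 0.0242 in wild type and 1.56 ± 0.0301 in knockout (SD, n = 3 each).

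The second pair expressed in these cells lies on the X chromosome. Col4a5 (12830), the gene altered in X-linked Alport syndrome, was at 28.2, 28.6 and 28.9 FPKM in wild type and 28.2, 22.7 and 28.6 FPKM in knockout (−0.12 ± 0.090, 95% interval −0.32 to 0.08, adjusted p = 0.279, edgeR). Col4a6 (94216) was at 24.3, 22.8 and 23.3 and 23.8, 18.6 and 23.3 FPKM (−0.11 ± 0.095, 95% interval −0.32 to 0.10, adjusted p = 0.34, edgeR). For both genes knockout replicates 1 and 3 lay within or at the edge of the wild-type range and replicate 2 lay below it. Without replicate 2 the changes were −0.01 and −0.00038 (adjusted p = 0.718 and 0.993, edgeR). The ratio of Col4a5 to Col4a6 was 1.22 ± 0.0494 in wild type and 1.21 ± 0.0262 in knockout, with overlapping libraries. Col4a3 and Col4a4, whose chains join α5 in the kidney filter, had 1 and 0 counts over all wild-type libraries and 0 and 2 over all knockout libraries.

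FACIT collagens, 8 genes of which 5 were tested, were dominated by Col16a1. Col16a1 (107581), whose product links fibrils to other matrix, rose from 93.4, 95.9 and 94.7 to 132, 143 and 128 FPKM (0.49 ± 0.058, adjusted p = 1.04e-04, edgeR). The ratio to Col1a2 was 0.182 ± 0.00196 in wild type and 0.179 ± 0.0104 in knockout, and the libraries overlapped. Col12a1, for a large chain that bridges fibrils, was at 4.64 ± 0.0257 and 4.92 ± 1.43 FPKM (SD, n = 3 each; 0.08 ± 0.18, 95% interval −0.34 to 0.49, adjusted p = 0.741, edgeR). Its knockout libraries were spread widely, at 5.50, 3.29 and 5.98 FPKM for replicates 1, 2 and 3, against 4.67, 4.63 and 4.62 in wild type. Without knockout replicate 2 it was called higher (0.30, adjusted p = 4.60e-07, edgeR). Col20a1 was at 4.29 ± 0.360 and 4.16 ± 0.435 FPKM and was not called (95% interval −0.27 to 0.16 on the log2 scale).

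Lower levels were found for 2 FACIT genes. Col9a3, for a chain of the cartilage collagen IX, averaged 2.16 ± 0.112 FPKM in wild type and 1.66 ± 0.301 in knockout (−0.39 ± 0.15, adjusted p = 0.0483, edgeR), a call that was lost in several other settings. Its change was −0.53 without knockout replicate 2 (adjusted p = 0.00264, edgeR). Col22a1 (69700), of a collagen known from tissue junctions, had 25, 30 and 25 counts in the wild-type replicates and 10, 14 and 15 in the knockout replicates, all below the wild-type libraries. Its summed counts in wild type were 2.18 times those in knockout after scaling to total counts (95% counting interval 1.47 to 3.28), with a log2 fold change of −1.11 ± 0.27 (adjusted p = 0.0063, edgeR). Counting intervals are exact, and they cover counting error only. Col14a1, Col9a2 and Col19a1 were not tested, with 13, 5 and 6 counts over all wild-type and 10, 2 and 2 over all knockout libraries.

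Of the network-forming genes, Col8a1 (12837), for a short chain of vessel walls and of the membrane under the corneal endothelium, had the highest fold rise among the tested collagens. It went from 14.9, 14.9 and 16.5 FPKM in the wild-type replicates to 34.4, 31.3 and 34.5 FPKM in the knockout replicates (1.10 ± 0.070, 95% interval 0.94 to 1.26, adjusted p = 2.75e-06, edgeR), a fitted 2.14-fold rise. Its nearest tested neighbours on chromosome 16 were at 0.12 (Filip1l) and 0.81 (Dcbld2). The upstream window of Col8a1, chr16:57754738-57754987 on the minus strand, is shown because its 4 GC boxes, at −170, −73, −66 and −23 on the reverse strand, are as many as in any window of the tested collagen genes.
Col8a1: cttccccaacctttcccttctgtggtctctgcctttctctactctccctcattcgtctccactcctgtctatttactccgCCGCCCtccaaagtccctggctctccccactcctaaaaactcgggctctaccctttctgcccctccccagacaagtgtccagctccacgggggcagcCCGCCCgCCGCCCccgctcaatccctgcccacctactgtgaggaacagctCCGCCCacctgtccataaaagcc
Col10a1 (12813), whose product marks hypertrophic cartilage, had 20, 19 and 24 counts in the wild-type replicates and 0, 1 and 4 in the knockout replicates. Its summed counts in wild type were 13.4 times those in knockout after scaling (95% counting interval 5.44 to 42.6; fitted log2 fold change −3.64 ± 0.57, adjusted p = 5.59e-04, edgeR). That value was −5.17 without knockout replicate 3, which held 4 of the 5 knockout counts, and −1.95 with limma. The partner of Col8a1, Col8a2, had 2 counts summed over wild type and 3 summed over knockout.

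Among the tested collagen genes known from cartilage, Col9a3, Col10a1 and Col11a2 were lower, Col27a1 was higher and Col11a1 was not called. Beside them a list of 7 chondrocyte markers, 5 of them present and 1 tested, summed to 267 to 295 CPM in wild type and 162 to 172 CPM in knockout, but that sum was nearly all Sox9, the tested gene, which fell. The other 4, Acan, Matn1, Matn3 and Snorc, were at 0.347 CPM or less in any library. A list of 7 osteoblast markers, of which 6 were present, is set beside collagen I. It summed to 5384 to 5650 and 3609 to 4013 CPM, most of it Spp1 (5257 to 5529 and 3511 to 3932 CPM). Runx2, Spp1 and Dmp1 were lower, and Sp7, Bglap and Alpl were at 0.217 CPM or less in any library and not tested. Dmp1 was at 0.578 to 1.03 CPM in wild type and at 0 in all knockout libraries, so it was tested through the wild-type libraries only. The 6 myofibroblast and smooth muscle markers summed to 67.7 to 72.2 and 91.6 to 117 CPM, with Acta2 and Tagln higher. Cnn1, Myh11 and Actg2 were at 0.517 CPM or less in any library and not tested. Des was not called, at 4.47 CPM in knockout replicate 2 and 0.719 CPM or less in the other libraries. The part of these shifts in the collagen changes was not tested.

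The multiplexin, transmembrane and anchoring fibril classes were all at low levels. Col18a1 (12822), a multiplexin of basement membranes whose end fragment is endostatin, was at 1.25, 1.18 and 1.05 FPKM in the wild-type replicates and 0.453, 0.435 and 0.397 FPKM in the knockout replicates (−1.44 ± 0.13, adjusted p = 2.55e-05, edgeR), so every knockout library lay under every wild-type library. Col15a1, the other multiplexin, had 3 counts summed over wild type and 6 summed over knockout. Col17a1, a transmembrane collagen of hemidesmosomes, averaged 2.22 ± 0.343 FPKM in wild type and 1.29 ± 0.315 FPKM in knockout (−0.79 ± 0.18, adjusted p = 0.00423, edgeR). Col25a1 and Col23a1, also transmembrane, were not tested. Col25a1 had 36 counts summed over wild type and 6 summed over knockout, 6.37 times as many in wild type after scaling (95% counting interval 2.66 to 18.5), and without knockout replicate 2 it passed the filter, through the wild-type libraries alone (−2.28, adjusted p = 0.00246, edgeR). Col7a1, of the anchoring fibrils that fasten epithelium to the tissue beneath, rose from 0.549 ± 0.0761 to 1.02 ± 0.101 FPKM (0.88 ± 0.14, adjusted p = 5.69e-04, edgeR).

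Col28a1 had 61 counts summed over wild type and 47 summed over knockout and was not called (95% interval −1.37 to 0.46 on the log2 scale). The 15 untested genes held 183 counts together, 1 to 42 each. Beside those already given, Col24a1 went from 24 summed counts in wild type to 12, Col2a1 0 and 5, Col26a1 2 and 0, and Col23a1 2 and 4. The 16 genes with a mean of at least 5 FPKM held 99.0% to 99.2% of the summed collagen FPKM in each library. Of these 16, 8 were higher, 5 lower and 3 not called, beside 30.5% higher and 29.2% lower over all genes tested.

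Ordered by mean FPKM in wild type, these 16 were Col1a2, Col6a1, Col3a1, Col6a3, Col1a1, Col6a2, Col16a1, Col4a1, Col4a2, Col5a2, Col5a1, Col4a5, Col4a6, Col8a1, Col5a3 and Col27a1. Each gene's 3 wild-type libraries all lay above those of the next gene, and the first neighbours to overlap were Col12a1 and Col20a1 below them. In knockout the order at the top was Col1a2, Col1a1, Col6a1, Col16a1, Col4a1, Col6a2, Col3a1 and Col6a3. Without knockout replicate 2 Col6a1 (234 FPKM) stood above Col1a1 (232 FPKM) and Col6a3 (72.0 FPKM) next to Col3a1 (71.8 FPKM), so the order within these pairs rests on that library. In both orders Col1a1, Col16a1, Col4a1 and Col6a2 stood above Col3a1 and Col6a3, whereas in wild type they stood below them.

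**Figure D5:**
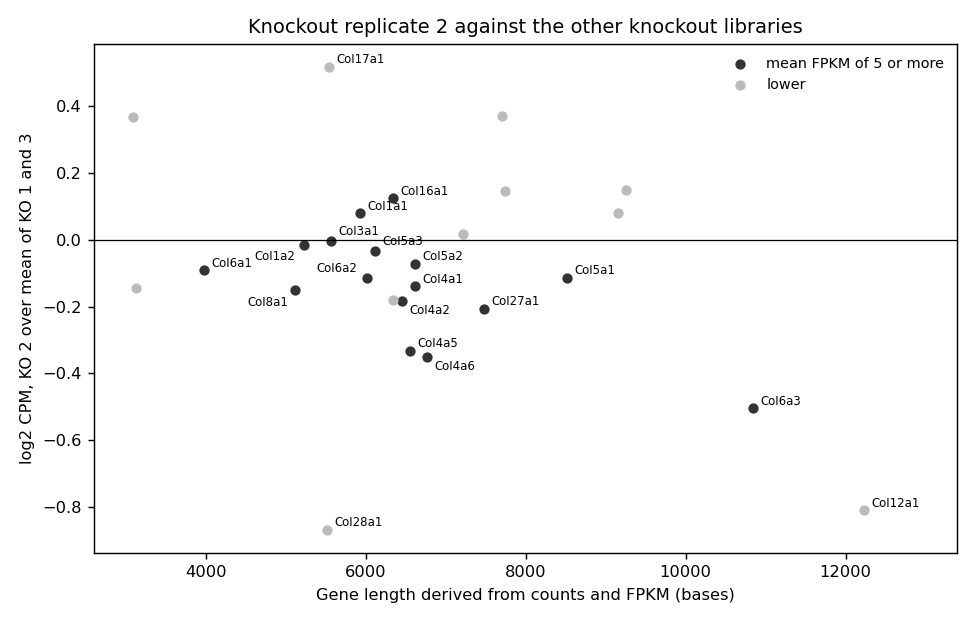
Log2 ratio of CPM in knockout replicate 2 to the mean of knockout replicates 1 and 3, against gene length in bases derived from the deposited counts and FPKM, for the 27 tested collagen genes; dark points have a mean of at least 5 FPKM. Col6a3 and Col12a1, the longest transcripts, lie at −0.50 and −0.81, while Col1a1, Col1a2 and Col3a1 lie near 0.

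In knockout replicate 2 the longest collagen transcripts were low. Col12a1 (12235 bases) was at 0.567 times and Col6a3 (10841 bases) at 0.705 times the mean of the other knockout libraries, while Col1a1 (5930 bases) was at 1.06 times and Col3a1 (5564 bases) at 0.998 times. Over the 16 abundant genes the Spearman correlation of this ratio with length was −0.56, and 14 of the 16 ratios were below 1. Over all 27 tested genes, many of them with few counts, the correlation was −0.098. These points share the same libraries. Without replicate 2, 28 collagen genes were tested, of which 11 were higher and 12 lower, while the share called over all genes tested went from 59.6% to 71.1%.

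Genes that process collagen moved in both directions, and so did genes at large. Of all genes tested 59.6% were called, 30.5% higher and 29.2% lower, the shares to set beside the counts of each list below. Hydroxylation and glycosylation of procollagen, which stabilise the helix and prepare cross-links, had 13 tested genes, of which 4 were higher (P4hb, P3h3, P3h4 and Colgalt1) and 5 lower (P4ha1, P4ha2, P4ha3, Plod1 and Plod2), with a median log2 fold change of −0.12. Plod2, whose product hydroxylates lysines of the collagen ends, fell from 8.09 ± 0.329 to 4.29 ± 0.276 FPKM (SD, n = 3 each; −0.93 ± 0.067, adjusted p = 5.68e-06, edgeR). P4ha3, a prolyl hydroxylase subunit, and Plod1, another lysyl hydroxylase, fell by 0.61 ± 0.15 and 0.46 ± 0.058 on the log2 scale. Of 12 genes of procollagen folding and secretion, 3 were higher (Fkbp10, Fkbp14 and Hspa5) and 2 lower (Mia3 and Klhl12), with a median of −0.05. Without knockout replicate 2, where 71.1% of all genes were called, these counts were 5 and 5. Hspa5, the chaperone BiP, and Fkbp14, a prolyl isomerase, rose by 0.50 ± 0.065 and 0.54 ± 0.11, and Mia3, which loads collagen into transport carriers, fell by 0.50 ± 0.068. Serpinh1, the collagen chaperone HSP47, was not called (−0.05, adjusted p = 0.394, edgeR).

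Propeptide removal and cross-linking had 9 tested genes, 4 higher (Pcolce, Lox, Loxl3 and Loxl4), 4 lower (Adamts2, Adamts14, Bmp1 and Furin) and Loxl1 not called, with a median of 0.04. Lox, the lysyl oxidase that starts cross-links between collagen molecules, lay at 243, 253 and 256 FPKM in the wild-type replicates and at 648, 549 and 620.3 FPKM in the knockout replicates, 1.26 ± 0.074 on the log2 scale (adjusted p = 1.77e-06, edgeR). Its relative Loxl4 rose by 1.28 ± 0.097, and Adamts14, which removes the amino-terminal propeptide, fell by 0.98 ± 0.056. Thus Adamts2, Adamts14 and Bmp1, whose products cut off propeptides, all fell, and Lox, Loxl3 and Loxl4 of the lysyl oxidase family rose.

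Collagen receptors and uptake had 9 tested genes, 3 higher (Itga11, Ddr1 and Mrc2), 3 lower (Itga1, Itga2 and Ddr2) and 3 not called (Itga10, Itgb1 and Cd44), with a median of −0.09. The discoidin domain receptors, kinases that bind collagen, parted: Ddr2 fell from 63.0 ± 1.25 to 24.3 ± 4.84 FPKM (−1.39 ± 0.13) and Ddr1 rose from 9.03 ± 0.557 to 13.6 ± 0.347 FPKM (0.58 ± 0.064). Itga11, an integrin chain for fibrillar collagen, rose by 0.75 ± 0.11. Itga1 was at 1.14 to 1.67 CPM in wild type and 0.381 to 0.651 CPM in knockout. Not every knockout library reached the minimum of the filter on low counts, so Itga1 needed the wild-type libraries to pass it.

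Of 6 tested proteases that cleave collagen, Mmp14 was higher, Mmp9, Mmp13, Mmp16 and Ctsk were lower and Mmp2 was not called, with a median of −1.19, also with Mmp16 at its bound given below. Ctsk, the collagen-cleaving cathepsin K, fell from 24.2 ± 0.863 to 2.66 ± 0.206 FPKM (SD, n = 3 each), and Mmp14, a membrane-bound collagenase, rose by 0.25 ± 0.051 on the log2 scale. Mmp9, the gelatinase B that cleaves denatured collagen, fell from 12.9 ± 0.358 to 4.34 ± 0.155 FPKM (−1.58 ± 0.065). Mmp16 went from 152 summed counts to 0, at least 53.8-fold lower against a floor of 3 counts over the group. It was thus tested through the wild-type libraries only. Among 11 tested matrix partners of fibrils, 4 were higher (Lum, Tnxb, Dpt and Tgfbi), 5 lower (Dcn, Fn1, Thbs2, Postn and Aebp1) and 2 not called, with a median of −0.03. Lum and Dcn, small proteoglycans that bind fibrils, moved in opposite directions, and Lum rose from 3.10 ± 0.0739 to 59.4 ± 1.99 FPKM (4.25 ± 0.068). Postn, the matrix protein periostin, fell from 9.05 ± 0.326 to 0.318 ± 0.112 FPKM (−4.83 ± 0.16). Tgfbi, which also binds collagen, went from 1.36 ± 0.104 to 12.9 ± 0.452 FPKM.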

How the data were processed

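Polyadenylated RNA of 3 wild-type and 3 RAI16 knockout libraries of serum-starved NIH3T3 cells was measured; groups and replicate numbers come from the titles. The deposited table of raw counts per gene and the deposited table of FPKM were made by the authors with Trimmomatic, HISAT2, Cufflinks, HTSeq and DESeq on the mouse build GRCm39, per the submitters' processing notes. Versions, annotation release and strand setting were not found there, so reads of overlapping antisense genes cannot be told apart; the library kit, TruSeq Stranded mRNA with 1 µg of RNA, marks strand, per the labels' protocols. Over all genes with counts, FPKM differed from the count over library total and 1 length per gene by at most 8.04e-05%, and that length is the gene length used here.

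Counts were filtered with filterByExpr (minimum count 10), scaled by TMM (factors 0.995 to 1.01) and fitted across all genes with edgeR 4.0.16 in R 4.3.3 by group alone (glmQLFit, glmQLFTest), adjusted by Benjamini-Hochberg. The standard error is the size of the log2 fold change over the square root of F. The biological coefficient of variation was 7.76%. The step was tested on simulated counts with independent noise. They held far fewer changed genes than these data and no library with a length trend, so that test does not check error rates here. Counting intervals are exact binomial at 95%; PCR copies are not independent molecules. All replicate pairs differed by more than counting noise, so each library counts once. The same-numbered libraries of the groups were not treated as paired. Correlations of their deviations were −0.0725, −0.0938 and 0.0221, which with 3 libraries per group cannot exclude a pairing.

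Alternatives were DESeq2 1.42.0 size factors and Wald test, upper-quartile scaling, no or a stricter filter (1 CPM in 3 libraries), limma 3.58.1 on log2(FPKM + 0.1), a replicate block, leaving out each library, and TMM-scaled CPM in place of FPKM. Per-library values are given for collagen genes with a mean of at least 5 FPKM or a called change of at least 2-fold, and group values or changes for, from each pathway list, the 3 called genes of largest change at 5 CPM or more, with counts of up to 5 named in full. The members, classes and lists were chosen with earlier results of these data known. Gene order and promoter windows are from RefSeq on GRCm38.p6, matched by symbol and gene number. That build differs from the authors', so no coordinates of the counted genes are given.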

Additional observations from a re-analysis of the deposited data

How the results depend on the processing

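Over all alternatives, 8 to 11 collagen genes were higher and 9 to 12 lower, against 9 and 11, and 45.1% to 71.1% of all genes tested were called, against 59.6%. Of 351 values, one per tested gene and alternative, 332 kept their direction and their side of the threshold, 17 lost the call, 2 gained it (Col12a1 and Col4a2 without knockout replicate 2) and 0 reversed. The lost calls were those of Col11a2, Col9a3 and, without wild-type replicate 3, Col27a1. With the DESeq2 Wald test Col11a2 and Col9a3 had adjusted p = 0.0529 and 0.0567, with upper-quartile scaling 0.0642 and 0.0660, with no filter 0.0511 and 0.0564, and Col11a2 had 0.0943 with limma. The median log2 fold change of the tested genes ran from −0.227 (without knockout replicate 1) to −0.0573 (without knockout replicate 2) when a library was left out, against −0.12. The summed collagen level was 1.01 times that of wild type in FPKM and 0.96 times in TMM-scaled CPM, which does not divide by length. With the replicate block 9 collagen genes were higher and 11 lower, the median was −0.126, and 6692 genes were called in all. The log2 fold change of Col10a1 was −1.95 with limma, where the pseudocount shrinks low values, and −5.17 without knockout replicate 3, which held 4 of its 5 knockout counts; that of Col22a1 was −0.60 with limma. DESeq2 size factors and upper-quartile scaling moved the median of all genes by 0.0111 and 0.00679. Depth limits the 15 untested genes, each with at most 42 counts over all libraries.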
